A study of Mus musculus with 10 samples.

Results

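The Nodal, Activin, BMP and TGF-beta pathway was followed through 48 genes, listed by symbol, that encode its ligands, co-receptors, soluble inhibitors, receptors, Smad proteins, a nuclear partner and Id target genes. A row was found by Ensembl gene identifier for 47 of the 48, out of 38924 genes counted per sample, and Gdf1 was not analysed here. RNAseq had been performed on 10 samples of cells sorted at day 5 of mouse embryonic stem cell differentiation. All came from a Foxa2-hCD4 tagged line, in which a truncated human CD4 made from the Foxa2 locus lets living cells be sorted by Foxa2 expression. There were 3 samples of Foxa2+ cardiac mesoderm (CM) and 3 of Foxa2- CM, both sorted as Pdgfra+ Kdr+ cells with or without hCD4. Another 2 samples were Pdgfra- Kdr+ hCD4- cells, labelled Flk1+ high and described by the study as haematopoietic mesoderm. These 8 samples came from the same kind of cardiac culture, given Activin A at 8 ng/ml, BMP4 at 1 ng/ml and VEGF at 5 ng/ml. The remaining 2 samples were endoderm, sorted as hCD4+ cells negative for Pdgfra and Kdr from cultures given Activin A at 75 ng/ml without BMP4 or VEGF. Endoderm therefore differed from the other groups both in cell type and in the added Activin, BMP4 and VEGF, and these cannot be told apart. The sources used here describe a single tagged line, and no genotype other than the tag was compared.

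Ligands of this family bind pairs of type I and type II serine/threonine kinase receptors, which phosphorylate Smad proteins that enter the nucleus with Smad4. Nodal, Activin and TGF-beta ligands act mainly through Smad2 and Smad3, and BMPs through Smad1, Smad5 and Smad9. Nodal in addition needs the co-receptor Tdgf1 (Cripto), and Foxh1 guides its Smads to many targets. The pathway is known for feedback: Nodal signalling switches on its own inhibitors Lefty1 and Lefty2, and BMP signalling switches on the inhibitory Smads and the Id genes. In the gastrulating embryo high Nodal activity goes with endoderm and BMP activity with posterior and extra-embryonic mesoderm, the source of blood and endothelium.

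Values are given in CPM (counts scaled to library size after TMM normalisation, a usual unit of RNAseq), and a gene was called changed at an adjusted p under 0.05 from edgeR's quasi-likelihood test. Total gene counts per sample ranged from 10926284 to 17470126, so that 3 counts, taken as the smallest detectable signal, lay between 0.172 and 0.275 CPM. Foxa2 was at 20.0, 16.0 and 3.49 CPM in Foxa2+ CM samples, 2.54, 0.872 and 0.902 CPM in Foxa2- CM samples, 185 and 182.5 CPM in endoderm and 0.689 and 0.787 CPM in Flk1+ high. Foxa2+ CM replicate 3 thus stood close to the Foxa2- CM range. The 9 cardiac mesoderm markers summed to 1217 to 1390 CPM in Foxa2+ CM samples, 1443 to 1591 CPM in Foxa2- CM, 819.5 to 1040 CPM in Flk1+ high and 247 to 398 CPM in endoderm. The 5 primitive streak markers summed to 738 CPM or more in every CM and endoderm sample and to at most 513.5 CPM in Flk1+ high, and the 4 neural markers reached 20.05 CPM in endoderm and at most 2.38 CPM elsewhere. The 4 visceral endoderm markers stayed at or below 5.85 CPM in every sample. The samples numbered 3 stood apart in both CM groups, and the endothelial gene Cdh5 reached 43.35 CPM in Foxa2- CM replicate 3 against 2.845 and 1.98 CPM in the other two. The 2 Flk1+ high libraries differed from each other in several of the genes below, so each is given by its own value. Since these are bulk samples, fewer cells of a type and less RNA per cell cannot be told apart.

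The endoderm samples differed from mesoderm in many members, whereas the 2 CM groups differed in few. Between endoderm and Foxa2+ CM, 31 of the 45 members tested were called, beside 35% of all genes tested. Of these 14 were higher in endoderm, beside 18.3% of all genes, and 17 lower, beside 16.7%. Against Foxa2- CM, 27 of 45 were called, beside 30.1% of all genes, with 12 higher (16.1%) and 15 lower (14%). Flk1+ high differed from Foxa2+ CM in 19 of 45 members, beside 22.8% of all genes, with 8 higher (11.6%) and 11 lower (11.2%). From Foxa2- CM it differed in 22 of 45, beside 21.6%, with 8 higher (11.3%) and 14 lower (10.3%). The endoderm and Flk1+ high groups differed in 24 of 45 members, beside 32.6%, with 12 higher (16.4%) and 12 lower (16.2%) in endoderm. Foxa2+ and Foxa2- CM differed in 6 of 44 members, beside 6.48% of all genes, with 2 higher (3.81%) and 4 lower (2.66%) in Foxa2+ CM. Calls of at least 2-fold numbered 4 between the CM groups, beside 3.01% of all genes. They numbered 22 and 21 for endoderm against Foxa2+ and Foxa2- CM (18.7% and 17% of all genes), 13 and 16 for Flk1+ high against the same groups (11.4% and 11.6%), and 21 between endoderm and Flk1+ high (19.1%). The median absolute log2 fold change of the members was 1.165 between endoderm and Foxa2+ CM, against 0.332 over all genes tested, and 0.197 against 0.114 between the 2 CM groups. These comparisons share samples and are given side by side as separate values. Of the 45 members tested, 8 were called in no comparison: the type II receptors Acvr2a, Acvr2b and Bmpr2, the Smad partner Foxh1, the inhibitory Smad7, the ligand Tgfb3, and Id1 and Id2. Inhba and Grem1 did not pass the filter on low counts and were not tested. The plot of all 47 levels shows the blocks of genes that separate endoderm from the 3 mesoderm groups.

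**Figure D1:**
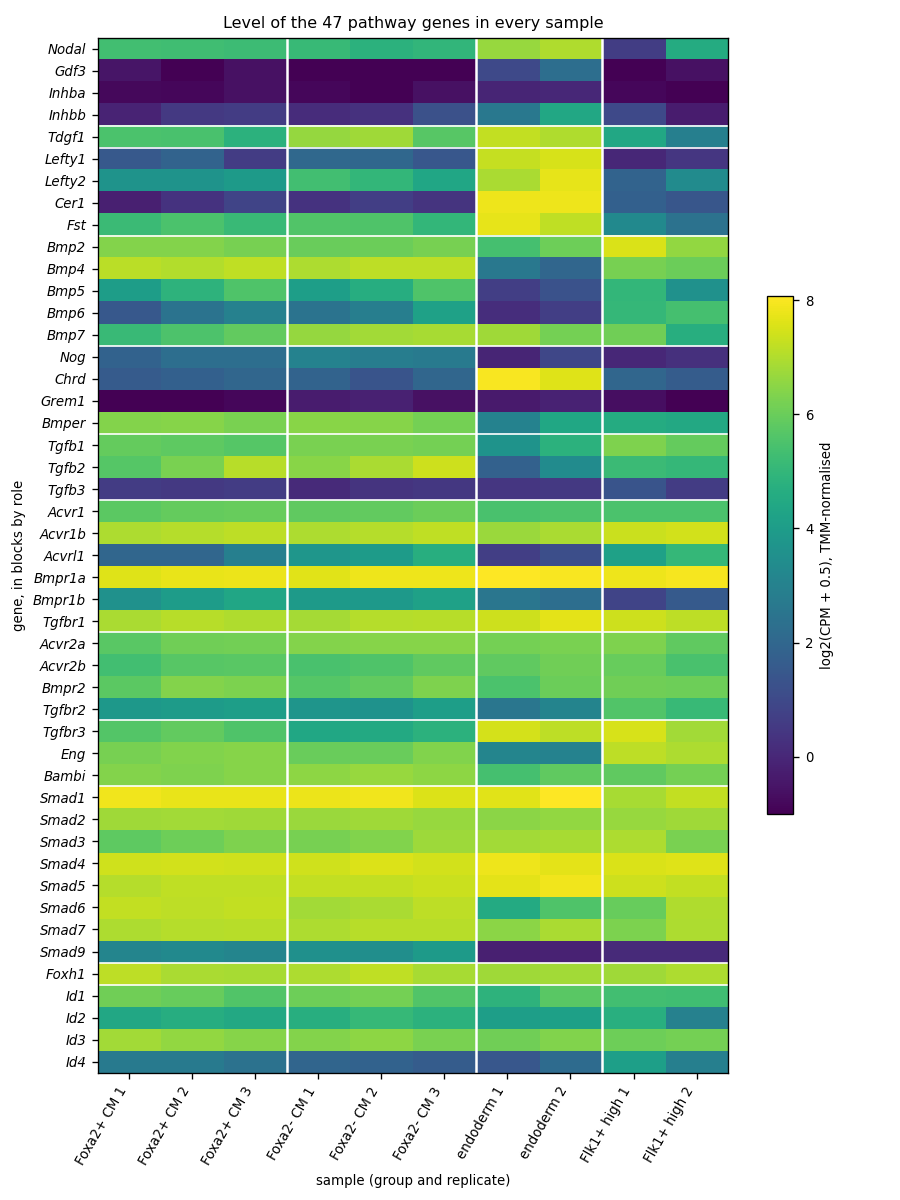
Heat map of the level of 47 pathway genes (rows, in blocks by role) in the 10 samples (columns), coloured by log2(CPM + 0.5), with white lines between groups and between roles. Lefty1, Cer1 and Chrd are bright in the 2 endoderm samples and dark in most others, with Chrd at 197 CPM or more in endoderm and at most 3.51 CPM elsewhere, while Bmp4 and Bmp5 show the opposite.

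To show what lies upstream of the genes that separated endoderm from Foxa2+ CM most, the 250 bases before the annotated start are printed for the 3 members with the largest called increase and the 3 with the largest called decrease among those with a RefSeq promoter window on build GRCm38.p6, the build of these files. A window was held for 31 of the 47 members. None was held for Bambi, Tgfb3, Smad4, Fst, Gdf3, Tgfbr3, Lefty1, Bmp7, Bmp2, Nog, Lefty2, Foxh1, Smad7, Id1, Acvrl1 and Smad2. Tdgf1 is added because it was the 1 member with a FoxH1-type motif. Each sequence reads 5′ to 3′ on the strand of its gene and ends at the base before the RefSeq start. Capitals mark matches on either strand to 3 motifs: the FoxH1-type AATNNACA, the Smad box CAGACA and the palindromic GC-rich Smad site GGCGCC, none of which overlapped another here. Higher in endoderm were Cer1 (chr4:82885152-82885401, minus strand), Chrd (chr16:20732877-20733126, plus strand), Inhbb (chr1:119422249-119422498, minus strand) and Tdgf1 (chr9:110946159-110946408, minus strand). Lower were Bmp4 (chr14:46390670-46390919, minus strand), Smad9 (chr3:54755332-54755581, plus strand) and Bmp5 (chr9:75775115-75775364, plus strand).
Cer1: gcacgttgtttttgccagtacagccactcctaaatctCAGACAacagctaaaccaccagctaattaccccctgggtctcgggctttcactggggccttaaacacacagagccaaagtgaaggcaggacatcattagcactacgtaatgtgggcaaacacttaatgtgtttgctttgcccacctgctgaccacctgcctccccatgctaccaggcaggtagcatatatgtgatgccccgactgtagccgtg
Chrd: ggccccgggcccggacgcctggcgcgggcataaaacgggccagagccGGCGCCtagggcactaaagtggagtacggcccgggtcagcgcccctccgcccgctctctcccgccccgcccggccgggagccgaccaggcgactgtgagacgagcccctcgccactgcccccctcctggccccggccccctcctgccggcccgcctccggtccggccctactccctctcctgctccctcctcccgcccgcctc
Inhbb: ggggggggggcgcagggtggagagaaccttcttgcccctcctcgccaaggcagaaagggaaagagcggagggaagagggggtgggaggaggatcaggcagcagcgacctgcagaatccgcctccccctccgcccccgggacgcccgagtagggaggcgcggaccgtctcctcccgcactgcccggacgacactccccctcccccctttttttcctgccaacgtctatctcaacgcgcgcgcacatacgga
Tdgf1: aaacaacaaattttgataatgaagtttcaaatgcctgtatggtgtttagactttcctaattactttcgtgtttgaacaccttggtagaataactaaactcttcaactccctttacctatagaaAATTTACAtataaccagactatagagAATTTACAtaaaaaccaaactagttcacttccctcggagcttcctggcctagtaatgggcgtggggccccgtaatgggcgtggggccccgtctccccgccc
Bmp4: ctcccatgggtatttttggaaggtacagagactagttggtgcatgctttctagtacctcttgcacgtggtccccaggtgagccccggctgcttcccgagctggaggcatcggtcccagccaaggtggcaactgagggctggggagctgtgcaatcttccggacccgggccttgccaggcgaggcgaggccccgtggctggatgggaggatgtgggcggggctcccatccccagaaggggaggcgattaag
Smad9: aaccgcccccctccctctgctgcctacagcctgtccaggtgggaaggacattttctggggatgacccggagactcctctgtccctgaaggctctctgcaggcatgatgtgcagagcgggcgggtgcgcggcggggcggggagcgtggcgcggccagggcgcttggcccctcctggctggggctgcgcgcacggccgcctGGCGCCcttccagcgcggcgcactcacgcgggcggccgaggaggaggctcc
Bmp5: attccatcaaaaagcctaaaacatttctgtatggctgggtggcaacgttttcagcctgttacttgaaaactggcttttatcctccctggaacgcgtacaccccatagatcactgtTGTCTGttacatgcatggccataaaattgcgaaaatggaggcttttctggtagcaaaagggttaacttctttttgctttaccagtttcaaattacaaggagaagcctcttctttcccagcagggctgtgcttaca

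The Tdgf1 window held 2 copies of AATTTACA, from −127 to −120 and from −101 to −94 relative to the start. AATNNACA occurred in 10.9% of all 32851 promoter windows of this length, and in the window of no other member. CAGACA occurred in 17.1% of all windows and in those of 5 members, namely Bmp5, Bmpr1b, Cer1, Tgfb2 and Tgfbr1. It lay from −213 to −208 in Cer1, and its reverse complement lay from −135 to −130 in Bmp5. The site GGCGCC occurred in 9.59% of all windows and in those of 9 members, Bmpr1a, Bmpr2, Chrd, Grem1, Id2, Id4, Smad5, Smad9 and Tgfbr1. It lay from −203 to −198 in Chrd and from −51 to −46 in Smad9. CAGACA and GGCGCC were thus found on both sides of the endoderm comparison, and AATNNACA only in Tdgf1, which was higher in endoderm. All these matches are descriptions of letters, not of binding. The GC content of the windows ranged from 42.0% in Tdgf1 and 42.8% in Bmp5 to 78.0% in Chrd.

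Among the Nodal and Activin ligands, Nodal itself was highest in endoderm. It stood at 101 and 128 CPM in endoderm, 39.5, 38.85 and 36.3 CPM in Foxa2+ CM samples, 33.8, 28.0 and 30.8 CPM in Foxa2- CM samples and 1.065 and 23.7 CPM in Flk1+ high. Endoderm did not overlap any other group, while the 2 Flk1+ high libraries lay far apart. In the model of all 10 samples the difference between endoderm and Foxa2+ CM was not called (log2 fold change 1.58, SE 0.67, edgeR adjusted p = 0.097), nor that between endoderm and Foxa2- CM (log2 fold change 1.89, SE 0.68, edgeR adjusted p = 0.0621). With both Flk1+ high libraries left out of the model, an alternative chosen after seeing the data, the log2 fold changes were 1.58 and 1.89 with edgeR adjusted p = 1.29e-05 and 6.06e-06. Nodal was called higher in endoderm than in Flk1+ high (log2 fold change 3.24, SE 0.83, edgeR adjusted p = 0.0145), a call that was lost without endoderm replicate 2 (adjusted p = 0.0587). Against Foxa2+ CM, Flk1+ high was not called as a group (log2 fold change −1.66, SE 0.76, edgeR adjusted p = 0.148). The log2 fold change was −5.18 with Flk1+ high replicate 1 alone and −0.69 with replicate 2 alone, so the size rested on which library was kept.

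Inhbb, which encodes the beta B subunit of Activin B, was at 5.68 and 21.4 CPM in endoderm and at no more than 1.86 CPM in any mesoderm sample. It was called higher in endoderm than in Foxa2+ CM (log2 fold change 4.06, SE 0.72, edgeR adjusted p = 0.00216) and than in Foxa2- CM (log2 fold change 3.63, SE 0.70, edgeR adjusted p = 0.00398). The 2 endoderm samples lay apart from each other, and without endoderm replicate 2 the comparison with Foxa2- CM gave 2.36 and an adjusted p of 0.0536. Gdf3, a Nodal-like ligand of the early embryo, had 16 and 52 counts in the endoderm samples. It had 3, 0 and 3 counts in Foxa2+ CM, 0 in each Foxa2- CM sample, and 0 and 2 in Flk1+ high. Its endoderm mean of 2.92 CPM was at least 12.3-fold higher than in Foxa2- CM, taking 3 counts in a library as the floor. The calls against Foxa2+ CM (edgeR adjusted p = 0.00566), Foxa2- CM (edgeR adjusted p = 0.00281) and Flk1+ high (edgeR adjusted p = 0.00949) rest on few counts, and the first and last were lost without endoderm replicate 2. Inhba, for the beta A subunit, had between 0 and 6 counts in every sample and did not pass the filter on low counts. Added Activin A protein is not seen by these transcripts.

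Tdgf1, the Nodal co-receptor, was likewise highest in endoderm and lowest in Flk1+ high, but higher in Foxa2- than in Foxa2+ CM samples. It was at 150.4 and 127 CPM in endoderm, 98.4, 108 and 51.75 CPM in Foxa2- CM samples, 44.55, 43.5 and 27.7 CPM in Foxa2+ CM samples and 21.1 and 7.08 CPM in Flk1+ high. Endoderm was called higher than Foxa2+ CM (log2 fold change 1.85, SE 0.40, edgeR adjusted p = 0.00645) and not called against Foxa2- CM (log2 fold change 0.69, SE 0.40, edgeR adjusted p = 0.223). Flk1+ high was called lower than Foxa2- CM (log2 fold change −2.59, SE 0.46, edgeR adjusted p = 0.00445). Of the 50-base windows of Tdgf1 transcripts, 8.9% also occur in Tdgf1-ps1, so its counts are uncertain to that extent.

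Of the soluble inhibitors of Nodal and Activin, 4 of 4 were called higher in endoderm than in each of the other 3 groups. Cer1, a secreted antagonist of Nodal and BMP, was at 226.5 and 231 CPM in endoderm. It was at 0.365, 0.751 and 1.30 CPM in Foxa2+ CM samples, 0.742, 1.11 and 0.789 CPM in Foxa2- CM samples and 2.95 and 2.20 CPM in Flk1+ high. The endoderm values stood far above every mesoderm sample, and the difference was called against Foxa2+ CM (log2 fold change 8.09, SE 0.28, edgeR adjusted p = 4.8e-07), Foxa2- CM (log2 fold change 8.03, SE 0.28, edgeR adjusted p = 5.17e-07) and Flk1+ high (log2 fold change 6.46, SE 0.30, edgeR adjusted p = 2.1e-06). At these low levels Cer1 was also called higher in Flk1+ high than in Foxa2+ CM (log2 fold change 1.63, SE 0.34, edgeR adjusted p = 0.00857) and Foxa2- CM (log2 fold change 1.58, SE 0.34, edgeR adjusted p = 0.0105). Both of these calls were lost without Flk1+ high replicate 1, with adjusted p of 0.0523 and 0.0588.

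Lefty1 and Lefty2, feedback antagonists of Nodal, both lie on chromosome 1 (Lefty2 at chr1:180893108-180899103, plus strand, and Lefty1 at chr1:180935022-180938400, plus strand). Lefty1 was at 154 and 181 CPM in endoderm, 2.41, 3.24 and 1.01 CPM in Foxa2+ CM samples, 3.71, 3.57 and 2.255 CPM in Foxa2- CM samples and 0.501 and 0.865 CPM in Flk1+ high. It was called higher in endoderm than in Foxa2+ CM (log2 fold change 6.24, SE 0.36, edgeR adjusted p = 5.21e-06), Foxa2- CM (log2 fold change 5.73, SE 0.35, edgeR adjusted p = 7.8e-06) and Flk1+ high (log2 fold change 7.95, SE 0.50, edgeR adjusted p = 8.66e-06). Lefty2 was at 119 and 214 CPM in endoderm, 39.1, 31.6 and 19.9 CPM in Foxa2- CM samples, 11.98, 12.2 and 15.0 CPM in Foxa2+ CM samples and 3.20 and 9.99 CPM in Flk1+ high. Both were lowest in Flk1+ high. Per kilobase of exon, Lefty2 exceeded Lefty1 in both CM groups, and Lefty1 had the higher mean in endoderm. Lefty2 was called higher in endoderm than in Foxa2+ CM (log2 fold change 3.67, SE 0.42, edgeR adjusted p = 0.000196) and Flk1+ high (log2 fold change 4.69, SE 0.52, edgeR adjusted p = 0.000191). The paralogs are alike in sequence: 17.9% of the 50-base windows of Lefty1 and 12% of those of Lefty2 occur in the other gene as well, so their separation is uncertain to that extent.

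Fst (follistatin), which binds Activin, also differed between the mesoderm groups. It was at 214 and 147 CPM in endoderm, 36.15, 44.7 and 35.0 CPM in Foxa2+ CM while Foxa2- CM had 48.7, 46.55 and 32.0 CPM, but at 9.34 and 4.88 CPM in Flk1+ high. Endoderm was called higher than Foxa2+ CM (log2 fold change 2.22, SE 0.26, edgeR adjusted p = 0.000211), and Flk1+ high was called lower than Foxa2+ CM (log2 fold change −2.42, SE 0.31, edgeR adjusted p = 0.000888) and Foxa2- CM (log2 fold change −2.55, SE 0.31, edgeR adjusted p = 0.000764). The groups of endoderm, CM and Flk1+ high did not overlap.

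**Figure D2:**
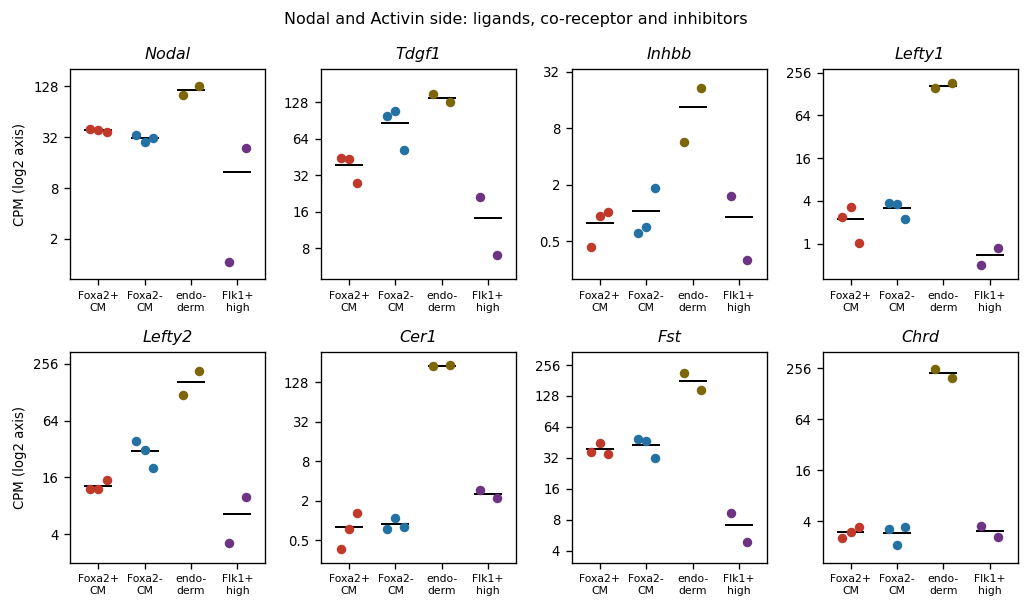
Level in CPM (log2 axis, each panel with its own range) of 8 genes of the Nodal and Activin side in the 4 groups; each point is 1 sample and each bar the group mean. The 2 endoderm points lie above all other points for every gene shown, as for Cer1 at 226.5 and 230.8 CPM, and the 2 Flk1+ high points of Nodal lie far apart at 1.06 and 23.7 CPM.

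The genes that were high in endoderm include several that the pluripotent epiblast also expresses. The 5 pluripotency or epiblast markers summed to between 419 and 429 CPM in endoderm, against 51.1 to 58.3 CPM in Foxa2+ CM samples, 85.7 to 122.8 CPM in Foxa2- CM and 27.4 to 47.8 CPM in Flk1+ high, and 4 of 5 were called higher in endoderm than in Foxa2+ CM while Zfp42 was called lower. Nanog, for example, was at 162 and 156 CPM in endoderm. The 8 endoderm markers summed to between 1363 and 1458 CPM in endoderm and to at most 294 CPM in any mesoderm sample, with 6 of 8 called higher than in Foxa2+ CM. No marker of either list was at 0 in any group. The part of remaining epiblast-like cells in the endoderm values was not tested.

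Of the 5 BMP ligands, none was called higher and 3 were called lower in endoderm than in each CM group. Bmp4, the ligand that had also been added as protein to the cardiac cultures, was at 139, 129 and 148 CPM in Foxa2+ CM samples, 123, 143.5 and 143 CPM in Foxa2- CM samples, 72.6 and 65.1 CPM in Flk1+ high and 5.68 and 3.51 CPM in endoderm. The CM groups overlapped, Flk1+ high lay below them and endoderm below all others. Bmp4 was called lower in endoderm than in Foxa2+ CM (log2 fold change −4.93, SE 0.18, edgeR adjusted p = 5.63e-07), Foxa2- CM (log2 fold change −4.90, SE 0.18, edgeR adjusted p = 6.81e-07) and Flk1+ high (log2 fold change −3.92, SE 0.18, edgeR adjusted p = 2.19e-06), and lower in Flk1+ high than in Foxa2+ CM (log2 fold change −1.01, SE 0.13, edgeR adjusted p = 0.00101). Bmp5 was at 1.12 and 1.92 CPM in endoderm and 31.3 and 11.6 CPM in Flk1+ high. In Foxa2+ CM it was at 16.1, 28.85 and 46.8 CPM and in Foxa2- CM at 16.3, 24.9 and 47.4 CPM, with the sample numbered 3 the highest in both. It was called lower in endoderm than in Foxa2+ CM (log2 fold change −4.32, SE 0.76, edgeR adjusted p = 0.00219), Foxa2- CM (log2 fold change −4.26, SE 0.76, edgeR adjusted p = 0.00276) and Flk1+ high (log2 fold change −3.81, SE 0.78, edgeR adjusted p = 0.00506). Of the exonic bases of Bmp5, 46.7% are covered by the antisense gene Gm26903, and no strand setting is given in the sources used here, so reads of the 2 genes cannot be told apart there.

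Bmp6 was highest in Flk1+ high. It was at 32.65 and 42.0 CPM there, 2.34, 4.97 and 7.325 CPM in Foxa2+ CM samples, 4.95, 6.82 and 17.7 CPM in Foxa2- CM samples and 0.651 and 1.09 CPM in endoderm, so that Flk1+ high overlapped no other group. It was called higher than Foxa2+ CM (log2 fold change 2.92, SE 0.55, edgeR adjusted p = 0.00532) and Foxa2- CM (log2 fold change 1.92, SE 0.53, edgeR adjusted p = 0.0304), and endoderm was called lower than Flk1+ high (log2 fold change −5.40, SE 0.78, edgeR adjusted p = 0.000801). The call of Flk1+ high against Foxa2- CM was lost without Flk1+ high replicate 2 (adjusted p = 0.12), without Foxa2+ CM replicate 2 (adjusted p = 0.0512) or without Foxa2- CM replicate 1 or 2 (adjusted p = 0.103 and 0.115). Bmp2 was also highest in Flk1+ high, at 188 and 96.1 CPM against 83.3, 82.2 and 72.8 CPM in Foxa2+ CM samples, 63.8, 65.35 and 73.85 CPM in Foxa2- CM samples and 41.5 and 67.3 CPM in endoderm. Its call against Foxa2+ CM (log2 fold change 0.84, SE 0.26, edgeR adjusted p = 0.0432) rested on Flk1+ high replicate 1, without which the log2 fold change was 0.28 and the adjusted p 0.385. It was also lost with any 1 of the 6 CM libraries left out, at an adjusted p of up to 0.109. Bmp7 was at 109.7 and 72.3 CPM in endoderm and 67.5 and 24.9 CPM in Flk1+ high, and differed between the CM groups as described below.

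The soluble BMP inhibitors split. Chrd (chordin), which holds BMPs away from their receptors, was at 250.4 and 197 CPM in endoderm, 2.56, 2.95 and 3.44 CPM in Foxa2+ CM samples, 3.22, 2.06 and 3.44 CPM in Foxa2- CM samples and 3.51 and 2.60 CPM in Flk1+ high. The 3 mesoderm groups overlapped, and endoderm was called higher than Foxa2+ CM (log2 fold change 6.22, SE 0.21, edgeR adjusted p = 4.8e-07), Foxa2- CM (log2 fold change 6.24, SE 0.21, edgeR adjusted p = 5.17e-07) and Flk1+ high (log2 fold change 6.18, SE 0.25, edgeR adjusted p = 1.22e-06). Nog (noggin), another BMP trap, was lower in endoderm, at 0.465 and 1.42 CPM, and in Flk1+ high, at 0.501 and 0.708 CPM, than in Foxa2+ CM at 3.14, 4.34 and 4.34 CPM and Foxa2- CM at 7.61, 6.66 and 6.20 CPM. Endoderm was called lower than Foxa2+ CM (log2 fold change −2.04, SE 0.40, edgeR adjusted p = 0.00399). The calls for Flk1+ high were made against Foxa2+ CM (log2 fold change −2.71, SE 0.42, edgeR adjusted p = 0.00216) and Foxa2- CM (log2 fold change −3.49, SE 0.42, edgeR adjusted p = 0.000764). Bmper, a secreted BMP modulator with a role in vessels, was at 83.0, 86.0 and 75 CPM in Foxa2+ CM while Foxa2- CM had 87.4, 85.6 and 71.5 CPM. It was at 23.25 and 21.95 CPM in Flk1+ high (log2 fold change −1.85, SE 0.31, edgeR adjusted p = 0.00303) and 7.54 and 20.9 CPM in endoderm (log2 fold change −2.51, SE 0.33, edgeR adjusted p = 0.000398), both called lower than Foxa2+ CM. Grem1 had between 0 and 5 counts in every sample and did not pass the filter on low counts.

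**Figure D3:**
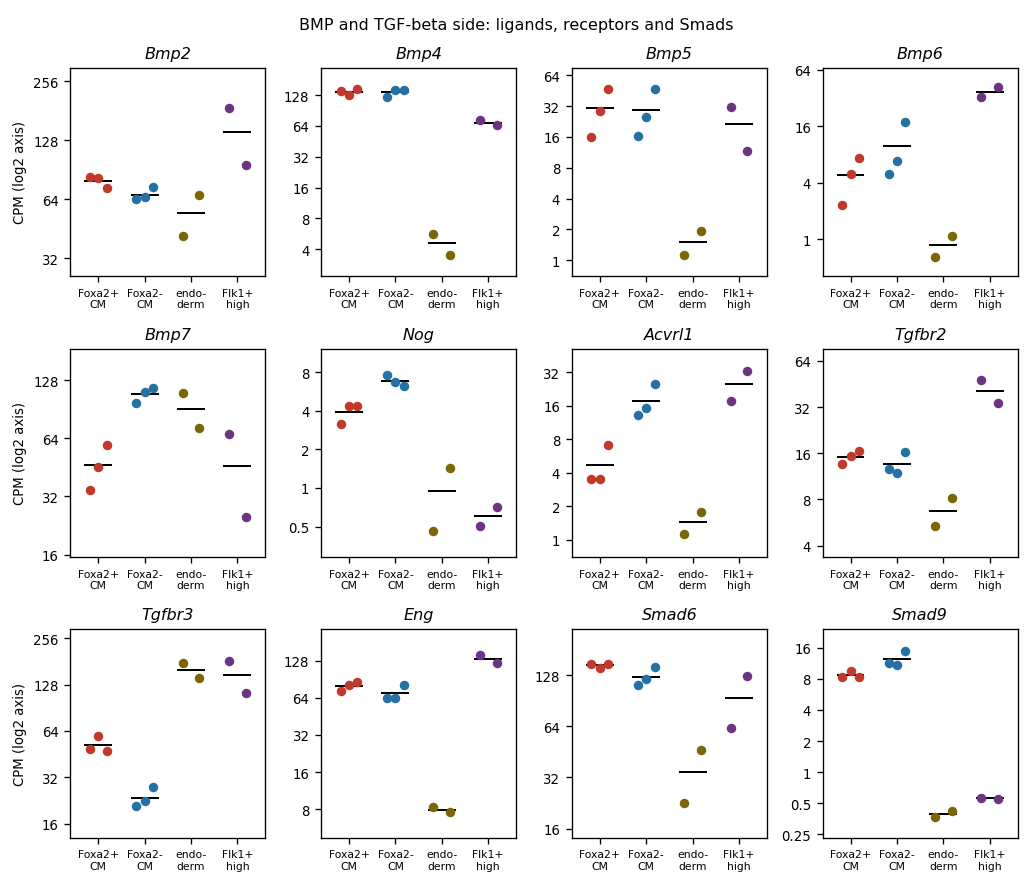
Level in CPM (log2 axis, each panel with its own range) of 12 genes of the BMP and TGF-beta side in the 4 groups; each point is 1 sample and each bar the group mean. Endoderm is lowest for Bmp4, Bmp5, Eng and Smad6, for example at 5.68 and 3.51 CPM for Bmp4, and Flk1+ high is highest for Bmp6, Tgfbr2 and Eng.

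Of the TGF-beta ligands, Tgfb1 and Tgfb2 were low in endoderm. Tgfb2 was at 2.98 and 9.86 CPM in endoderm, 35.5 and 32.3 CPM in Flk1+ high, 50.5, 76.0 and 136 CPM in Foxa2+ CM while Foxa2- CM had 87.9, 120 and 165 CPM. Endoderm was called lower than Foxa2+ CM (log2 fold change −3.75, SE 0.57, edgeR adjusted p = 0.000917) and Foxa2- CM (log2 fold change −4.25, SE 0.58, edgeR adjusted p = 0.000593), and the CM samples numbered 3 were again the highest of their groups. Tgfb1 was at 12.1 and 28.2 CPM in endoderm (log2 fold change −1.46, SE 0.28, edgeR adjusted p = 0.00339 against Foxa2+ CM). Tgfb3 stayed between 0.557 and 2.07 CPM in every sample.

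Of the type II receptors, which start the signal, Acvr2a, Acvr2b and Bmpr2 were called in no comparison. The largest of their log2 fold changes between endoderm and Foxa2+ CM was 0.38 for Acvr2b, and between the CM groups Acvr2a lay just outside the threshold, as given with that comparison. Among the type I receptors, Acvr1b, which serves Nodal and Activin, Tgfbr1, which serves TGF-beta, and the BMP receptors Acvr1 and Bmpr1a moved by less than 0.6 on the log2 scale in every comparison. Tgfbr1, for instance, was at 167 and 204 CPM in endoderm and 121, 135 and 128 CPM in Foxa2+ CM samples (log2 fold change 0.54, SE 0.11, edgeR adjusted p = 0.00409), a call lost without endoderm replicate 2 (adjusted p = 0.0639). Acvr1 was at 43.65 and 45.4 CPM in endoderm and 44.6 and 44.4 CPM in Flk1+ high, each called lower than Foxa2+ CM at 55.1, 59.6 and 61.0 CPM, with log2 fold changes of −0.40 and −0.40. Bmpr1a gave a log2 fold change of 0.29 in endoderm (edgeR adjusted p = 0.0204) and Acvr1b one of 0.34 in Flk1+ high (edgeR adjusted p = 0.0283), both against Foxa2+ CM and both calls that leaving out single libraries removed.

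Bmpr1b, Acvrl1, Tgfbr2 and the co-receptors varied more. Bmpr1b, a BMP type I receptor, was at 11.4, 15.5 and 20.2 CPM in Foxa2+ CM samples, 15.0, 14.5 and 17.9 CPM in Foxa2- CM samples, 5.40 and 4.345 CPM in endoderm and 1.32 and 2.44 CPM in Flk1+ high. It was called lower in Flk1+ high than in Foxa2+ CM (log2 fold change −3.08, SE 0.34, edgeR adjusted p = 0.000466) and Foxa2- CM (log2 fold change −3.09, SE 0.34, edgeR adjusted p = 0.000523), and lower in endoderm than in Foxa2+ CM (log2 fold change −1.69, SE 0.31, edgeR adjusted p = 0.00271). Acvrl1 (Alk1), an endothelial type I receptor for BMP and TGF-beta ligands, was at 17.6 and 32.65 CPM in Flk1+ high and 1.12 and 1.755 CPM in endoderm. The difference between these was called (log2 fold change −4.11, SE 0.54, edgeR adjusted p = 0.000495), as were those of Flk1+ high from Foxa2+ CM (log2 fold change 2.41, SE 0.41, edgeR adjusted p = 0.00337) and of endoderm from Foxa2- CM (log2 fold change −3.62, SE 0.52, edgeR adjusted p = 0.000834). Flk1+ high overlapped Foxa2- CM in Acvrl1, and that difference was not called (log2 fold change 0.49, SE 0.40, edgeR adjusted p = 0.434). Tgfbr2, the TGF-beta type II receptor, was at 48.1 and 33.8 CPM in Flk1+ high, 13.7, 15.3 and 16.6 CPM in Foxa2+ CM samples, 12.7, 11.9 and 16.3 CPM in Foxa2- CM samples and 5.40 and 8.105 CPM in endoderm. Flk1+ high overlapped no other group and was called higher than Foxa2+ CM (log2 fold change 1.43, SE 0.22, edgeR adjusted p = 0.00202) and Foxa2- CM (log2 fold change 1.59, SE 0.22, edgeR adjusted p = 0.00134).

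Endoglin (Eng), an endothelial co-receptor that works with Acvrl1, was at 144 and 123 CPM in Flk1+ high, 73.0, 81.0 and 85.8 CPM in Foxa2+ CM samples, 63.8, 64.0 and 80.7 CPM in Foxa2- CM samples and 8.28 and 7.52 CPM in endoderm. It was called lower in endoderm than in Foxa2+ CM (log2 fold change −3.34, SE 0.16, edgeR adjusted p = 1.72e-06) and Flk1+ high (log2 fold change −4.08, SE 0.16, edgeR adjusted p = 1.1e-06), and higher in Flk1+ high than in Foxa2+ CM (log2 fold change 0.74, SE 0.12, edgeR adjusted p = 0.00294). Tgfbr3 (betaglycan), a co-receptor that presents TGF-beta and binds inhibin, differed from Eng in being high in both endoderm, at 177 and 141 CPM, and Flk1+ high, at 182 and 112 CPM. Flk1+ high was called higher than Foxa2+ CM (log2 fold change 1.51, SE 0.20, edgeR adjusted p = 0.00116) and Foxa2- CM (log2 fold change 2.64, SE 0.21, edgeR adjusted p = 0.000126), and endoderm higher than Foxa2+ CM (log2 fold change 1.62, SE 0.20, edgeR adjusted p = 0.000341). Bambi, a pseudoreceptor that dampens signalling, was at 41.05 and 57.3 CPM in endoderm and 83.55, 79.1 and 86.15 CPM in Foxa2+ CM samples (log2 fold change −0.75, SE 0.15, edgeR adjusted p = 0.00382).

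Alongside these levels of Acvrl1, Eng, Tgfbr2 and Bmp6, markers of blood and endothelium also differed between the groups. The 10 haemato-endothelial markers summed to between 1341 and 1565 CPM in Flk1+ high, 478 to 609.5 CPM in Foxa2+ CM samples, 369 to 576 CPM in Foxa2- CM and 47.4 to 93.8 CPM in endoderm, where Hbb-bh1 was at 0. Of the 10, 8 were called higher in Flk1+ high than in Foxa2+ CM, and 5 lower in endoderm. Tal1, a master regulator of blood formation, was at 327.5 and 339 CPM in Flk1+ high. The share of blood-forming and endothelial cells in these gene levels was not tested.

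Among the Smads that carry the signal, Smad9, a BMP Smad, was near the floor in 2 groups. It was at 8.25, 9.48 and 8.23 CPM in Foxa2+ CM while Foxa2- CM had 11.3, 10.8 and 15.0 CPM, but at 0.372 and 0.418 CPM in endoderm and 0.564 and 0.551 CPM in Flk1+ high. These low levels correspond to between 4 and 9 counts a library. Smad9 was called lower in endoderm than in Foxa2+ CM (log2 fold change −4.42, SE 0.30, edgeR adjusted p = 9.79e-06) and Foxa2- CM (log2 fold change −4.94, SE 0.30, edgeR adjusted p = 7.32e-06), and lower in Flk1+ high than in Foxa2+ CM (log2 fold change −3.94, SE 0.27, edgeR adjusted p = 7.18e-05) and Foxa2- CM (log2 fold change −4.45, SE 0.27, edgeR adjusted p = 5.04e-05). Smad1, a BMP Smad, was at 117 and 152 CPM in Flk1+ high against 233, 218.5 and 219.6 CPM in Foxa2+ CM samples (log2 fold change −0.74, SE 0.14, edgeR adjusted p = 0.00639). Smad5 was at 207 and 232 CPM in endoderm against 132.5, 147 and 148 CPM in Foxa2+ CM samples (log2 fold change 0.62, SE 0.081, edgeR adjusted p = 0.000407). Smad3, a Nodal and Activin Smad, was called higher in endoderm than in Foxa2+ CM (log2 fold change 0.78, SE 0.22, edgeR adjusted p = 0.022), a call lost without Foxa2+ CM replicate 1 or 2 and without either endoderm replicate (the last at adjusted p = 0.102 and 0.118). Smad2 and the common partner Smad4 moved by −0.25 and 0.34 in the same comparison. Both were called, and both calls were lost without endoderm replicate 1 (adjusted p = 0.0741 and 0.0828).

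Of the 2 inhibitory Smads, only Smad6, which mainly restrains BMP signals, was called. It was at 22.6 and 46.5 CPM in endoderm, 149, 142 and 149 CPM in Foxa2+ CM samples, 112, 122 and 144 CPM in Foxa2- CM samples and 62.5 and 126.5 CPM in Flk1+ high, and was lower in endoderm than in Foxa2+ CM (log2 fold change −2.08, SE 0.34, edgeR adjusted p = 0.00134). Smad7 was at 88.5 and 119 CPM in endoderm and 123, 133 and 136 CPM in Foxa2+ CM, and was not called (log2 fold change −0.33, SE 0.18, edgeR adjusted p = 0.192). Foxh1 was at 143, 120 and 118 CPM in Foxa2+ CM samples and 108 and 112 CPM in endoderm (log2 fold change −0.20, edgeR adjusted p = 0.212). The Id genes, classic BMP targets that block differentiation factors, were called in few comparisons. Id1 was at 28.3 and 53.8 CPM in endoderm and 67.4, 62.4 and 48.6 CPM in Foxa2+ CM, Id3 at 68.3 and 80.3 and 112.5, 95.3 and 84.9 CPM in the same order, and Id2 at 16.3 and 17.1 and 21.03, 24.9 and 21.75 CPM. Between endoderm and Foxa2+ CM, 1 of the 4 was called, Id3 (log2 fold change −0.39, SE 0.13, edgeR adjusted p = 0.0461), a call lost without Foxa2+ CM replicate 1 or 2 or endoderm replicate 1 (the last at adjusted p = 0.19). Id2 differed between the Flk1+ high libraries, at 25.9 and 7.47 CPM. Id4 was at 17.0 and 7.002 CPM in Flk1+ high and 3.40, 3.09 and 2.65 CPM in Foxa2- CM samples (log2 fold change 1.98, SE 0.37, edgeR adjusted p = 0.00537).

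**Figure D4:**
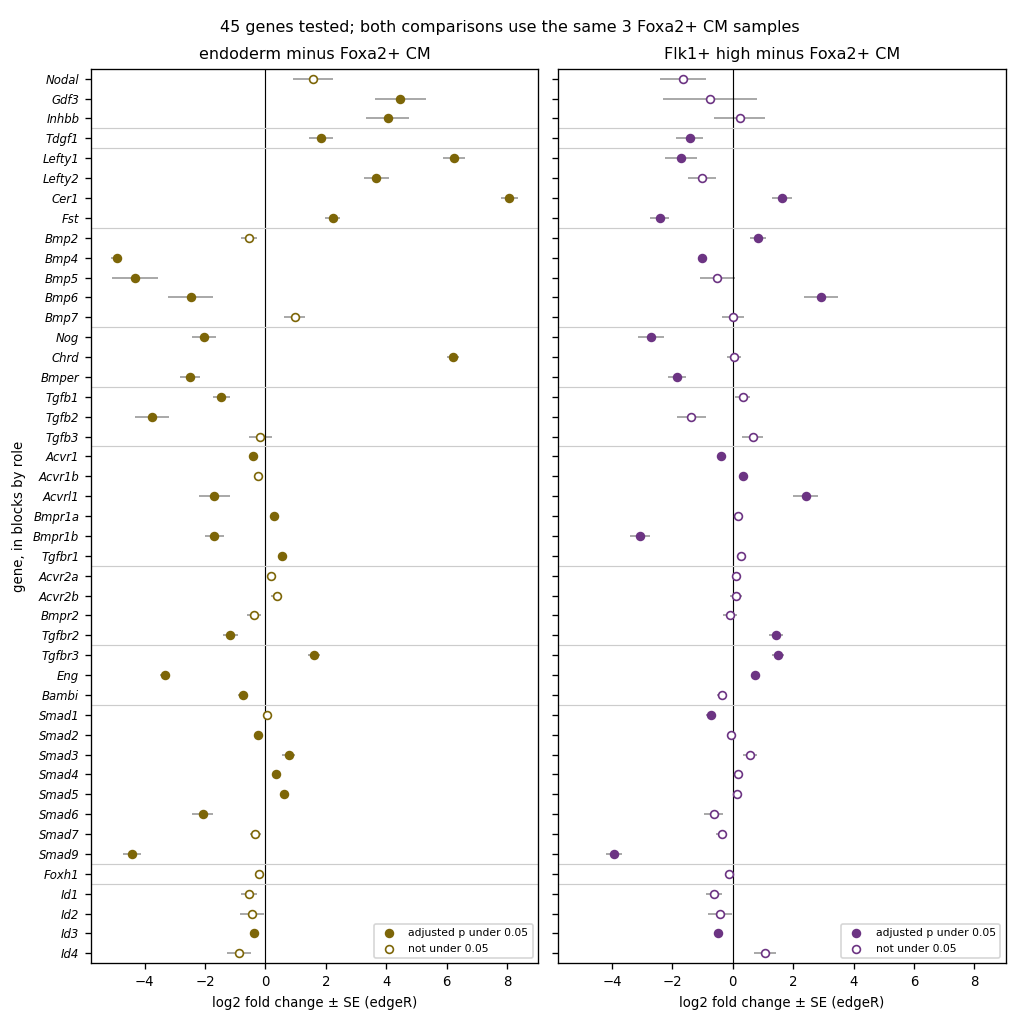
Log2 fold change (points) with its SE (bars) of 45 pathway genes in endoderm and in Flk1+ high, each minus Foxa2+ CM, in blocks by role; filled points had an edgeR adjusted p under 0.05. Both panels use the same 3 Foxa2+ CM samples. Cer1 at 8.09 and Bmp4 at −4.93 mark the ends of the endoderm panel, while Bmp6 at 2.92 and Smad9 at −3.94 mark those of the Flk1+ high panel.

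Foxa2+ and Foxa2- CM were compared over the 6 CM samples, to ask how the Foxa2+ cells differ in this pathway from the Foxa2- cells of the same kind of culture. Many members differed little between the means: Bmp4, Bmper, Smad1, Smad2, Smad4, Foxh1, Tgfbr1 and Acvr1b each moved by less than 0.1 on the log2 scale. The 6 calls fell on Tgfbr3 and Id4, higher in Foxa2+ CM, and on Bmp7, Lefty2, Acvrl1 and Tgfb1, lower. Tgfbr3 (chr5:107106570-107289629, minus strand) was at 49.2, 59.25 and 47.2 CPM in Foxa2+ CM while Foxa2- CM had 20.8, 22.4 and 27.6 CPM (log2 fold change 1.13, SE 0.14, edgeR adjusted p = 0.00475). The groups did not overlap, and the call was kept whichever CM sample was removed. Tgfbr3 is also among the genes that the study displayed from these samples, so it is not independent evidence. Id4 (chr13:48261228-48266026, plus strand) was at 6.21, 6.185 and 4.90 CPM in Foxa2+ CM while Foxa2- CM had 3.40, 3.09 and 2.65 CPM (log2 fold change 0.92, SE 0.19, edgeR adjusted p = 0.0301), again without overlap.

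Bmp7 (chr2:172868012-172940321, minus strand) was at 34.5, 45.4 and 59.3 CPM in Foxa2+ CM while Foxa2- CM had 97.5, 110.5 and 116.5 CPM (log2 fold change −1.22, SE 0.17, edgeR adjusted p = 0.00855). Lefty2 was at 11.98, 12.2 and 15.0 CPM and 39.1, 31.6 and 19.9 CPM, Foxa2+ CM being given first (log2 fold change −1.20, SE 0.23, edgeR adjusted p = 0.0235), with Foxa2- CM replicate 3 the closest to Foxa2+ CM. For Acvrl1 (chr15:101128522-101145336, plus strand) the values were 3.505, 3.47 and 7.10 CPM and 13.2, 15.15 and 25.0 CPM (log2 fold change −1.92, SE 0.35, edgeR adjusted p = 0.0201). The highest was Foxa2- CM replicate 3, which also had the most Cdh5 of the CM samples. In replicates 1 and 2 Cdh5 was higher in Foxa2+ CM, at 4.53 and 7.80 CPM against 2.845 and 1.98 CPM. Foxa2+ CM replicate 3 had 13.6 CPM of Cdh5. Pecam1, another of the haemato-endothelial markers, went the other way in all replicates. It was at 3.43, 4.625 and 5.75 CPM in Foxa2+ CM and 6.49, 8.80 and 26.7 CPM in Foxa2- CM. The part of endothelial cells in the Acvrl1 difference was not tested. Tgfb1 (chr7:25687002-25705077, plus strand) differed least, at 59.6, 56.5 and 50.7 CPM and 75.9, 74.6 and 71.6 CPM (log2 fold change −0.41, SE 0.073, edgeR adjusted p = 0.018). None of these 4 genes overlapped between the groups. In all, 15 of the 44 members did not overlap, beside 24% of all genes tested. The Id4 and Lefty2 calls were lost without replicate 1 or 2 of either group, that of Acvrl1 without Foxa2+ CM replicate 1 or 2 or Foxa2- CM replicate 2, and that of Tgfb1 without Foxa2+ CM replicate 2 or Foxa2- CM replicate 1 or 2. The Bmp7 call was lost without replicate 2 of either group (adjusted p = 0.0568 and 0.0584). Without Foxa2+ CM replicate 2 or without Foxa2- CM replicate 2, 1 member was called in each case, Tgfbr3, beside 1.51% and 1.52% of all genes. Without both CM samples numbered 3, an alternative chosen after seeing the data, 17 members were called beside 17.4% of all genes, so the number of calls rested on those samples.

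**Figure D5:**
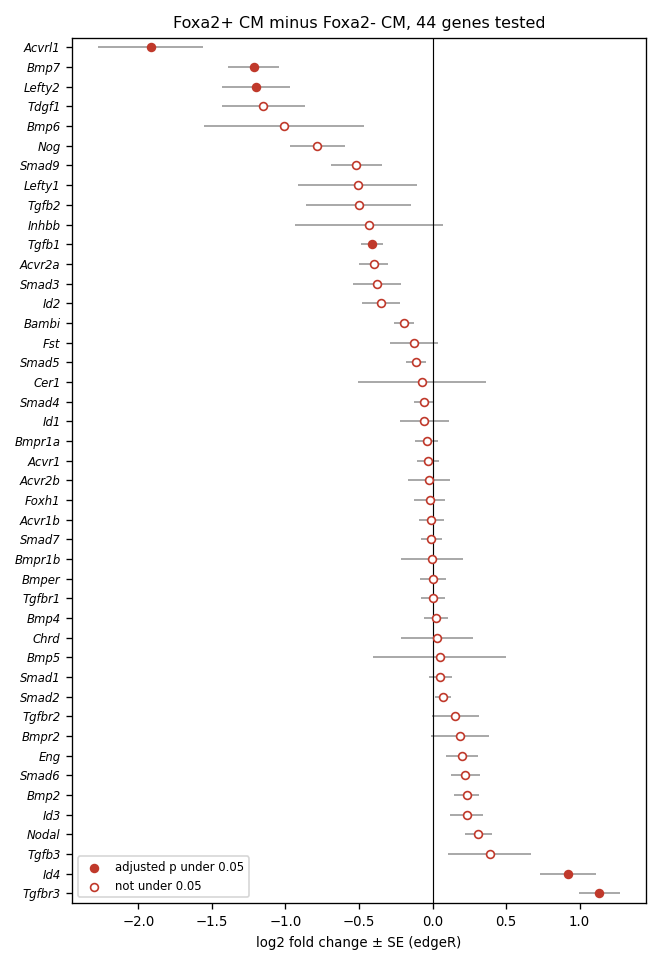
Log2 fold change (points) with its SE (bars) of the 44 pathway genes tested between Foxa2+ CM and Foxa2- CM, sorted by size; filled points had an edgeR adjusted p under 0.05. The 6 filled points range from Acvrl1 at −1.92 to Tgfbr3 at 1.13, and most open points lie near 0.

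A few members lay just outside the threshold. Nog gave a log2 fold change of −0.78 (edgeR adjusted p = 0.05 after rounding), Acvr2a −0.40 (edgeR adjusted p = 0.0509), Tdgf1 −1.15 (edgeR adjusted p = 0.0529) and Nodal 0.31 (edgeR adjusted p = 0.0999). With DESeq2 the first 3 were called, at adjusted p = 0.0326 for Nog, 0.00791 for Acvr2a and 0.027 for Tdgf1, and they were also called with no filter on low counts. The 4 genes are among the 15 members without overlap. Acvr2a was at 53.8, 68.3 and 70.0 CPM in Foxa2+ CM while Foxa2- CM had 83.1, 85.8 and 85.4 CPM. Tdgf1, Lefty2 and the epiblast marker Nanog were all lower in the Foxa2+ CM samples than in the Foxa2- CM samples. Nanog was at 4.97, 6.13 and 6.48 CPM in Foxa2+ CM while Foxa2- CM had 35.8, 35.1 and 23.45 CPM, and of the 5 epiblast markers 2 were called lower in Foxa2+ CM. Of the 8 endoderm markers, 3 were called higher in Foxa2+ CM and 0 lower. These were Foxa2, whose tag was used for the sort, Trh, and Sox17 at 27.7, 23.3 and 19.8 CPM against 4.64, 3.17 and 8.57 CPM. Foxa1, Cdh1 and Cxcr4 were lower in every Foxa2+ CM sample than in any Foxa2- CM sample, without a call. The 8 markers summed to 256 to 294 CPM in Foxa2+ CM and 247 to 276 CPM in Foxa2- CM, which overlap. Of the 9 cardiac mesoderm markers, 1 was called higher and 2 lower. The higher one was Nkx2-5, at 29.1, 25.0 and 20.1 CPM in Foxa2+ CM against 14.2, 9.99 and 10.1 CPM in Foxa2- CM. The lower ones were Hand1 and Mesp1, with Mesp1 at 6.43, 7.05 and 3.72 CPM against 61.9, 62.9 and 23.2 CPM in Foxa2- CM. Of the 10 haemato-endothelial markers, 1 was called higher. The part of less differentiated or endoderm-like cells in these differences was not tested, nor was it for Tgfbr3, which was high in endoderm too.

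Per kilobase of exon, Foxh1, Bmp4 and Id3 led in Foxa2+ CM, at 93.0 ± 10.4, 61.7 ± 4.17 and 54.5 ± 7.78 CPM per kb (SD, n = 3). Bmp4 and Id3 were closer than the sum of their SDs, and so were Id3 and the next gene, Id1, at 51.3 ± 8.39 CPM per kb. In Foxa2- CM the leaders were Foxh1, Bmp4 and Id1, at 94.4 ± 11.1, 60.8 ± 5.13 and 53.5 ± 10.9 CPM per kb (SD, n = 3), the last 2 again within their spread. Smad4 at 48.2 ± 3.50 and Id3 at 46.5 ± 4.45 CPM per kb also lay within the spread of Id1. The endoderm order was led by Cer1, Lefty1 and Foxh1, at 131.5 ± 1.73, 95.2 ± 10.7 and 80.8 ± 2.19 CPM per kb (SD, n = 2), with Nodal and Tdgf1 at 54.5 ± 9.20 and 52.9 ± 6.26 CPM per kb not separable from each other. Lefty2, at 63.8 ± 25.6 CPM per kb, was not separable from Foxh1. In Flk1+ high Foxh1, Smad4 and Bmp2 led at 85.7 ± 7.83, 51.7 ± 1.08 and 39.9 ± 18.2 CPM per kb (SD, n = 2), and the wide spread of Bmp2 covered the values of several genes below it. These levels were read after duplicate removal, which limits how many reads a short and abundant transcript can keep. Cer1 reached 1.588 counts per base in endoderm, the highest of all members, and 20 members exceeded 0.5 in some sample. High levels, and differences between them, may therefore be understated. Foxh1 lay between 0.851 and 1.53 counts per base in every sample, so the limit also covers its lack of a call.

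Other genes of the pathway were read from a separate list of 55, of which 43 were tested. Between the CM groups 2 were higher and 2 lower in Foxa2+ CM, beside 3.81% and 2.66% of all genes. Rgma, a BMP co-receptor (log2 fold change 0.52, edgeR adjusted p = 0.0248), and Furin, a protease that activates the ligands (0.33, adjusted p = 0.0389), were higher. Gdf10, a ligand of low level here (−2.31, adjusted p = 0.0239), and the BMP target Msx1 (−0.39, adjusted p = 0.0267) were lower. Against Foxa2+ CM, 12 were higher and 11 lower in endoderm, beside 18.3% and 16.7% of all genes. The largest increases were those of the BMP inhibitors Chrdl1 (2.72) and Nbl1 (1.66) and of the other Nodal co-receptor gene, Cfc1 (1.44). The largest decreases were those of the receptor gene Amhr2 (−4.38), the BMP target Msx2 (−3.82) and the ligand Gdf6 (−3.36). Compared with Foxa2- CM, 11 were higher and 9 lower in endoderm (16.1% and 14% of all genes), led by Chrdl1 (2.36), Ltbp4 (1.45) and Ltbp1 (0.85), which tether latent TGF-beta, and by Gdf6 (−4.00), Msx2 (−3.87) and Amhr2 (−3.82).

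In Flk1+ high, 3 of the 43 were higher and 9 lower than in Foxa2+ CM, beside 11.6% and 11.2% of all genes. Against Foxa2- CM, 6 were higher and 11 lower, beside 11.3% and 10.3%. The ligand gene Bmp8a led the increases against Foxa2+ CM (4.46, from 0.651 to 14.5 CPM), and Bmp8b was also higher (1.28). The same comparison gave Cfc1 (−2.80), Rgma (−2.18) and Ltbp2 (−2.17) as the largest decreases. Against Foxa2- CM the values were 4.53 for Bmp8a and 1.22 for Bmp8b, and −3.46 for Cfc1 and −1.99 for Fstl3, an Activin-binding protein. Gdf10 was also called lower, from a mean of 2.29 CPM, but lay under 3 counts a library on average in Flk1+ high and is given no fold. Between endoderm and Flk1+ high, 14 were higher and 10 lower in endoderm (16.4% and 16.2% of all genes), and Cfc1 differed most among the higher, with means of 45.5 and 2.40 CPM (4.24). Cfc1 and Tdgf1, the 2 co-receptors of Nodal, were thus both called higher in endoderm than in Foxa2+ CM and both called lower in Flk1+ high than in Foxa2+ CM. The latter call of Tdgf1 was lost without Flk1+ high replicate 2 (adjusted p = 0.175) and without Foxa2+ CM or Foxa2- CM replicate 1 or 2 or either endoderm replicate. The next largest increases were those of Rgma (2.76) and the TGF-beta target Pmepa1 (2.60), and Amhr2 (−3.15) was lower, while Bmp8a was below the floor of 3 counts in endoderm and gets no fold. All of these were called by edgeR at an adjusted p under 0.05.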

How the data were processed

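RNAseq of 10 samples was used: 3 Foxa2+ CM, 3 Foxa2- CM, 2 endoderm and 2 Flk1+ high. According to the methods, the authors made TruSeq libraries, aligned single-end reads to mm10 with STAR (2.5.0a per the labels), removed duplicates with Picard and counted with HTSeq (0.6.0). The values they deposited are raw counts per gene; the strand setting is not given in the sources used here. Of 38924 identifiers, 37607 matched GENCODE M21, on the same build. Counts were tested with edgeR 4.0.16 in R 4.3.3 (TMM, default expression filter, quasi-likelihood test, Benjamini-Hochberg adjustment over all genes tested, threshold 0.05), the CM groups over 6 samples and the rest in 1 model of 10. CPM used TMM library sizes computed over all 10 samples. An SE is the absolute log2 fold change over the square root of F. The pipeline was tested on simulated data. Alternatives were DESeq2 1.42.0, RLE factors, 2 other filters, other samples in the fit, a replicate block and leaving out each sample. Total gene counts per sample (10926284 to 17470126) set the precision of low genes, and floors cover counting error only. Nothing states that replicates were separate cultures, so p-values measure only the spread between these samples, which may be technical.

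The members, roles and lists were chosen with earlier results of these data known. Every member was accounted for; test values were given for all members called between the CM groups, for the 5 highest and 5 lowest called in each other comparison, and for members described with their role. Of the other pathway genes, up to 3 called in each direction were named, and 1 of them is not reported here. Markers and the 4 genes near the threshold were named after their values were seen. Promoter windows and motifs were read from RefSeq (GRCm38.p6). Figures and tables used pandas 2.3.3 and matplotlib 3.10.9.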

Additional observations from a re-analysis of the deposited data

How the results depend on the processing

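Of the 129 calls of a member in a comparison, 84 kept their direction and stayed under the threshold in every alternative, and none of the 129 changed direction. DESeq2 kept all 129. The number of members called between Foxa2+ and Foxa2- CM mostly moved with the share of all genes called. From 6 (6.48% of all genes) it became 2 with all 10 samples in 1 model (1.78%), 9 with DESeq2 (8.66%), and 17 without both CM samples numbered 3 (17.4%), an alternative chosen after seeing the data. The number rose while the share fell with no filter on low counts (9 members, 4.74%) and without Foxa2+ CM replicate 3 (7 members, 6.19%). Leaving out 1 library at a time gave 1 to 12 members for Foxa2+ against Foxa2- CM, where 1.51% to 11% of all genes were called. The lowest came without Foxa2+ CM replicate 2 or Foxa2- CM replicate 2, and the highest without Foxa2- CM replicate 3. It gave 22 to 37 (21.2% to 38.9% of all genes) for endoderm against Foxa2+ CM, 23 to 30 (17.7% to 34.1%) for endoderm against Foxa2- CM, 14 to 23 (14.4% to 23.3%) for Flk1+ high against Foxa2+ CM, 16 to 22 (13.5% to 20.6%) for Flk1+ high against Foxa2- CM, and 20 to 26 (23.3% to 33.1%) for endoderm against Flk1+ high. The counts and the shares are separate ranges over the same fits, and their ends need not come from the same fit. Of the other pathway genes, DESeq2 called 7 between the CM groups in place of 4. Scaling to total gene counts moved 181 of 188 group means by less than 1 SD. With 2 or 3 samples a group and a floor between 0.172 and 0.275 CPM, changes in Gdf3, Inhba and Grem1 could hardly be measured.

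With the replicate number as a block, 15 members were called between the CM groups in place of 6, beside 16.7% of all genes, and 127 of the 129 calls were kept. The members it added include Nog (edgeR adjusted p = 0.0127), Acvr2a (0.00152), Tdgf1 (2.35e-06), Nodal (0.018), Tgfb2 (0.000632) and Bmp6 (0.00369). The deviations of same-numbered CM samples correlated at 0.480, 0.0855 and 0.580 for numbers 1, 2 and 3. Those numbered 1 and 3 correlated best with each other. Those numbered 2 did not: Foxa2- CM replicate 2 correlated at 0.285 with Foxa2+ CM replicate 1. The main test used no pairing. Whether same-numbered samples came from 1 culture is not stated in the sources used here, so members called only with the block remain undecided.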
